A study of Oryctolagus cuniculus with 12 samples.

Results

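The secreted and membrane-bound proteases that cut extracellular matrix, and the tissue inhibitors that bind them, were followed through RNA of rabbit (Oryctolagus cuniculus) cornea after different illumination. Members were taken by name: every row of the deposited expression table whose gene name begins with MMP, ADAMTS, ADAMTSL or TIMP followed by a number. This gave 46 of the 29076 rows, namely 20 matrix metalloproteases (MMP), 19 disintegrin-like metalloproteases with thrombospondin motifs (ADAMTS), 3 ADAMTS-like genes (ADAMTSL) and 4 tissue inhibitors of metalloproteases (TIMP). The rule reads names only, not levels. There were 12 libraries, 3 each from corneas of groups labelled BL (blue light), GL, RL and Ctrl. GL and RL stand in the labels as letters only, with no wavelength, intensity, strain or sex. All rabbits were 6 months old on a normal diet. The wording of the treatment, exposure to light over 6 weeks, is the same for all 4 groups, so what the Ctrl animals received is not further described. Libraries were made from 1.3 µg of total RNA with a SMARTer mRNA kit. The labels do not say whether the 3 libraries of a group came from separate animals, so a p-value here reflects how far these libraries scatter, a scatter that may be technical only.

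MMPs are zinc proteases made as inactive precursors. They cut collagens, gelatin, laminins and many other proteins once the propeptide is removed by another protease. TIMPs bind the active site of MMPs, and TIMP3 also holds back several ADAMTS enzymes. The ADAMTS family includes enzymes that trim procollagens, cut proteoglycans or bind the fibrillin microfibrils, while the ADAMTSL proteins lack the protease domain. The corneal stroma is built mainly of type I collagen fibrils spaced by small proteoglycans, and its resting cells, the keratocytes, are known to make MMP2. Collagenase, stromelysin and MMP9 transcripts are best known from wounded or inflamed corneas.

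Libraries held 40.9 to 64.7 M (mega) counts, and the counts moved in steps of about 3.77 per sequenced fragment, which leaves roughly 10.9 to 17.2 M fragments per library. A floor of 3 fragments, below which a gene was not treated as detected, came to 11.3 counts, or 0.175 to 0.276 CPM (counts per M). Some libraries stood apart. BL 1, 2 and 3, RL 1 and Ctrl 1 had 2389 to 2563 genes at counts of 1 to 20, and the other 7 libraries had 767 to 1461. These 5 libraries, called rich in low counts below, include all of BL and none of GL. BL minus GL therefore also compares these library sets. Keratocyte markers (7 genes) summed to 13623 to 19708 FPKM (fragments per kilobase of transcript and per M of fragments) and corneal epithelial markers (8 genes) to 11877 to 20191 FPKM in all 12 libraries. Lens markers (8 genes) summed to 16293 FPKM in BL 1, and to 816 to 7948 FPKM in the others. Retinal markers (7 genes) were highest in GL 3, BL 1 and Ctrl 2, at 172, 49.1 and 37.2 FPKM. In such bulk tissue, fewer cells of a type and less RNA per cell cannot be told apart.

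Of the 46 members, 3 inhibitors and 1 gelatinase had the highest levels. TIMP3 had the highest mean level over the 12 libraries (134 FPKM), followed by MMP2 (125 FPKM), TIMP1 (102 FPKM) and TIMP2 (67.7 FPKM). ADAMTS2 (31.2 FPKM), MMP14 (24.5 FPKM), ADAMTS17 (18.9 FPKM) and MMP28 (11.5 FPKM) were the remaining members above 10 FPKM, so 8 members reached that level and 23 reached 1 FPKM. MMP11 averaged 7.08 FPKM. At the other end, 28 members had counts in every library, 11 in some and 7 in none, and 9 never reached the floor of 3 fragments.

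**Figure D1:**
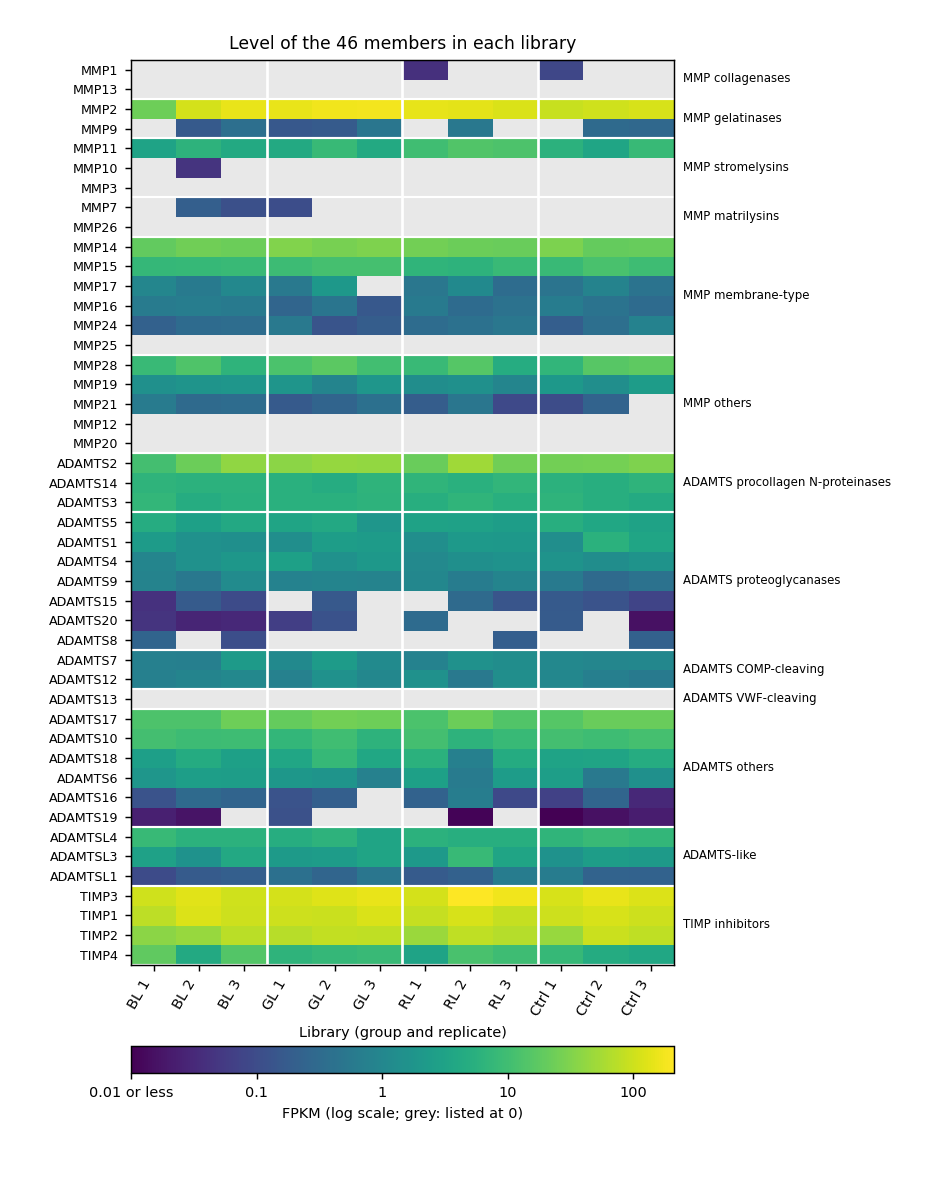
FPKM of the 46 members (rows, grouped by role) in the 12 libraries (columns, 3 per group) on a log colour scale, with grey for values listed at 0. TIMP1, TIMP2, TIMP3 and MMP2 are the brightest rows, and collagenases, MMP3, MMP10 and the matrilysins are grey or nearly so.

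The genes of the inducible collagenases and stromelysins were at or near 0 in all 4 groups. MMP3 (stromelysin 1) and MMP13 (collagenase 3) had 0 counts in all 12 libraries. MMP1 (interstitial collagenase) had counts in 2 libraries, RL 1 and Ctrl 1, and at most 8. These genes lie side by side. In the deposited numbering MMP13, MMP12, MMP3, MMP1, MMP10, MMP20 and MMP7 occupy 398 kb of chromosome 1, at 113615791 to 114013459, all on the plus strand. MMP7 (matrilysin) had the most counts of these 7 members, at most 16, and was above 0 in BL 2, BL 3 and GL 1 only. The 2 rows between them that carry only locus names are annotated as neutrophil collagenase and MMP27, and had at most 0 and 4 counts. MMP26, MMP25 and ADAMTS13, the protease of von Willebrand factor, were also at 0 throughout.

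MMP9 (gelatinase B) was barely detected. It had 0, 0.166 and 0.374 FPKM in BL, 0.155, 0.174 and 0.489 in GL, 0, 0.536 and 0 in RL, and 0, 0.313 and 0.293 in Ctrl. Each group overlapped the others, and 4 libraries were at 0. Its partner MMP2 (gelatinase A) supplied 69.3% to 74.5% of the summed MMP FPKM in the GL and RL libraries and 62.5% to 65.5% in Ctrl. In BL the shares were 35.6%, 66.9% and 76.9%.

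Comparisons were fitted by edgeR's quasi-likelihood test on the deposited counts, over 18171 genes with enough counts, 36 of them members. A gene was called at a Benjamini-Hochberg adjusted p below 0.05. No member was called by edgeR in any of the 8 comparisons, and few genes were called at all. The share of all genes called was 0.0165% for BL minus Ctrl, 0.055% for GL minus Ctrl, 0.011% for RL minus Ctrl, 0.0495% for BL minus GL, 0.011% for BL minus RL and 0.0715% for GL minus RL. It was 0.011% for the mean of BL, GL and RL minus Ctrl and 0.0605% for any difference among the 4 groups. Among other tools run, limma also called 0 members, and DESeq2 called MMP11 in BL minus RL and in the test of any difference. None of the member values below is therefore given as a change by edgeR.

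In each comparison 2 or 3 members had an unadjusted p below 0.05. ADAMTS9 and ADAMTS1 had one in BL minus Ctrl (2 of 36, 3.26% of all genes). ADAMTS9, ADAMTSL4 and MMP14 had one in GL minus Ctrl (3 of 36, 8.1% of all genes). In RL minus Ctrl these were MMP11, ADAMTS9 and ADAMTSL3 (3 of 36, 4.74% of all genes). Between the light groups they were MMP14, MMP15 and MMP16 for BL minus GL (3 of 36, 14.9% of all genes), MMP11 and TIMP3 for BL minus RL (2 of 36, 5.14%), and MMP11 and MMP15 for GL minus RL (2 of 36, 8.6%). ADAMTS9 and ADAMTS1 had one for the mean of the light groups minus Ctrl (2 of 36, 4.2%), and MMP11, MMP15 and ADAMTS9 in the test of any difference (3 of 36, 7.79%).

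The family as a whole lay close to all genes. The median log2 fold change of the 36 members was −0.09 in BL minus Ctrl, against 0.01 over all genes tested, with 14 members above 0 and 22 below (51.8% of all genes above 0). In GL minus Ctrl it was 0.11, against −0.02 over all genes, with 23 above and 13 below (48.2% of all genes above 0). In RL minus Ctrl it was 0.03, against 0.00 over all genes, with 19 above and 16 below (50.5% of all genes above 0). Fold changes are on the log2 scale, with the group named first on top, and those of MMP7 and ADAMTS8 are not given because at least 1 group was at 0 in every library.

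**Figure D2:**
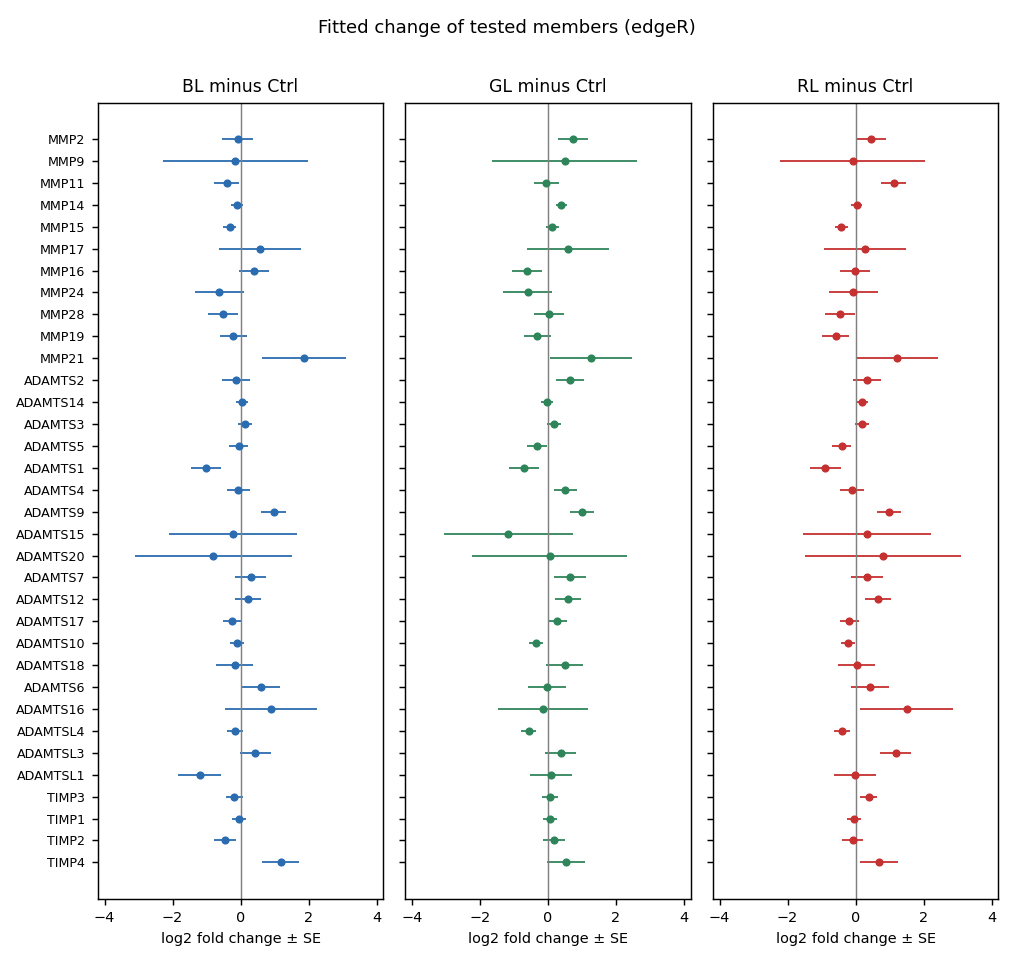
Fitted log2 fold change ± SE (edgeR, 3 libraries per group) of the 34 tested members without a group at 0, for BL, GL and RL minus Ctrl, grouped by role. Most points lie within 1 log2 unit of 0 and none was called, and the widest bars belong to members at low counts such as MMP9, ADAMTS15 and ADAMTS20.

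MMP11 (stromelysin 3), a protease activated inside the cell by furin and known from remodelling tissue, stood highest in RL. It had 3.18, 6.13 and 4.18 FPKM in BL, 4.28, 8.05 and 4.24 in GL, 10.1, 13.9 and 12.9 in RL, and 6.10, 3.51 and 8.32 in Ctrl. All 3 RL libraries were above all 9 others, whereas BL, GL and Ctrl overlapped one another. MMP11 was the 1 member of 36 with that order for RL, which 0.424% of all genes showed. The values rested on 218 to 1434 counts per library.

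By edgeR, MMP11 was 2.17-fold higher in RL than in Ctrl (log2 1.12 ± 0.37 SE, unadjusted p = 0.0107, adjusted p = 1). BL minus RL gave log2 −1.52 ± 0.38 (unadjusted p = 0.00153, adjusted p = 0.574), and DESeq2 gave −1.52 ± 0.40 with an adjusted p of 0.0370, which is a call. GL minus RL gave −1.18 ± 0.37 (unadjusted p = 0.00807, adjusted p = 0.481 by edgeR, 0.144 by DESeq2). The test of any difference among the 4 groups gave an unadjusted p of 0.00502 and an adjusted p of 0.507 by edgeR. Over 25 alternative settings the log2 values ran from 0.86 to 1.43 for RL minus Ctrl, from −1.83 to −1.30 for BL minus RL and from −1.55 to −1.02 for GL minus RL. MMP11 (gene ID 100101604) lies at 34359 to 42550, plus strand, of an unplaced sequence.

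MMP2, the main gelatinase of the normal cornea, had its highest levels in GL. It had 23.5, 113 and 153 FPKM in BL, 154, 167 and 174 in GL, 146, 139.9 and 118 in RL, and 90.8, 102 and 116 in Ctrl. All 3 GL libraries were above all 9 others (1 of 36 members, 2% of all genes), and BL 1 stood far below every other library. The order rests on a near tie, with 153.6 FPKM in GL 1 and 153.4 in BL 3. BL 1 was also the library with the highest lens marker sum, and the lowest mean log2(CPM + 0.5) of the 7 keratocyte markers, 10.1 against 10.8 to 11.5 in the others. Of those markers COL1A1, COL1A2, CD34 and THY1 were lowest in BL 1, at 349, 1009.9, 21.9 and 4.32 FPKM, while LUM and KERA were highest there, at 3127 and 3406 FPKM, and the sum of the 7, 15621 FPKM, lay within the range of the others. Their part in its MMP2 value was not tested. GL minus Ctrl gave log2 0.73 ± 0.45 (unadjusted p = 0.130, adjusted p = 0.653 by edgeR), RL minus Ctrl 0.45 ± 0.45 and BL minus Ctrl −0.08 ± 0.45. MMP2 lies at 11717915 to 11743377 of chromosome 5, plus strand.

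MMP14, the membrane-anchored protease that activates the MMP2 precursor together with TIMP2, varied little, with a median within-group coefficient of variation of 9.46% over the 4 groups. It had 19.6, 24.0 and 22.1 FPKM in BL, 31.9, 26.8 and 30.5 in GL, 24.8, 22.2 and 21.6 in RL, and 29.2, 20 and 21.2 in Ctrl. GL stood above BL and RL without overlap, and Ctrl 1 fell among the GL values. GL minus Ctrl gave log2 0.39 ± 0.17 (unadjusted p = 0.0374, adjusted p = 0.610 by edgeR), BL minus GL −0.49 ± 0.17 (0.0124 and 0.262) and GL minus RL 0.37 ± 0.17 (0.0508 and 0.581). All BL libraries and no GL library were rich in low counts. Over 25 alternative settings, a term for the 5 libraries rich in low counts among them, BL minus GL ran from −0.79 to −0.37.

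MMP15, a second membrane-type enzyme, showed a similar order at a lower level. It had 7.47, 7.96 and 8.59 FPKM in BL, 9.15, 11.1 and 11.4 in GL, 6.64, 6.22 and 8.46 in RL, and 8.43, 11.9 and 9.49 in Ctrl. GL was above BL and RL without overlap and shared its range with Ctrl. By edgeR, GL minus RL was log2 0.55 ± 0.20 (unadjusted p = 0.0159, adjusted p = 0.537) and BL minus GL was −0.45 ± 0.20 (0.0418 and 0.321). For MMP15 too, BL minus GL sets libraries rich in low counts against others. It ran from −0.55 to −0.16 over 25 alternative settings, the term for those libraries among them.

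MMP16, another membrane-type protease, ran the other way at under 1 FPKM. It had 0.628, 0.667 and 0.586 FPKM in BL, 0.256, 0.483 and 0.157 in GL, 0.599, 0.331 and 0.431 in RL, and 0.663, 0.437 and 0.330 in Ctrl. BL was above GL in every library (log2 1.02 ± 0.44, unadjusted p = 0.0384, adjusted p = 0.311 by edgeR). The values also split by library set. The 5 libraries rich in low counts, BL 1, 2 and 3, RL 1 and Ctrl 1, lay at 0.586 to 0.667 FPKM. The other 7 lay at 0.157 to 0.483 FPKM. Over 24 alternative settings, a term for these 5 libraries among them, BL minus GL ran from log2 0.33 to 1.55. Beyond that term, the part of this split in BL minus GL was not tested. MMP28 (epilysin), a protease known from epithelia, was spread widely within groups, with 8.49, 13.5 and 6.57 FPKM in BL, 12.8, 17.2 and 10.4 in GL, 8.40, 15.4 and 4.80 in RL, and 7.08, 16.1 and 17.8 in Ctrl. All 4 groups overlapped.

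**Figure D3:**
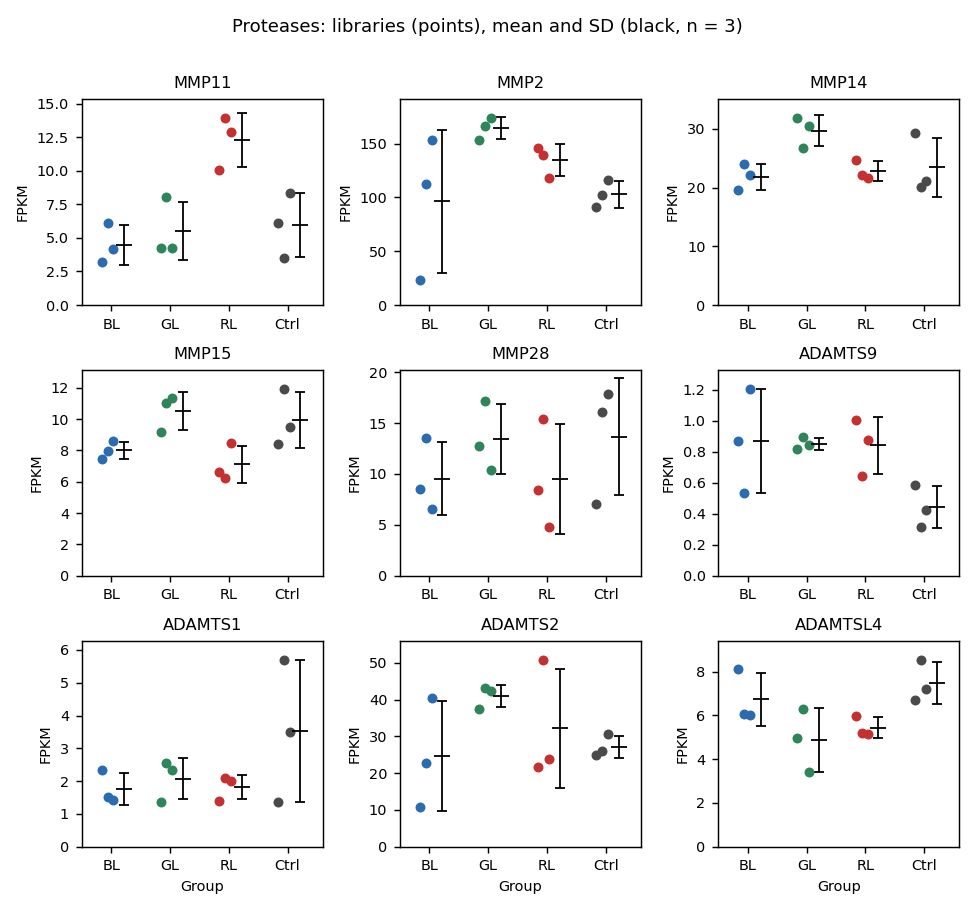
FPKM of 9 proteases and ADAMTS-like genes in each library (points), with the mean and SD of each group (black, n = 3), from BL to Ctrl. The 3 RL libraries (10.1 to 13.9) lie above all others for MMP11, and Ctrl (0.314 to 0.588) below GL and RL for ADAMTS9. For MMP2 the 3 GL libraries (154 to 174) lie above all others, with GL 1 only just above BL 3.

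Counting members whose groups do not overlap, with the same share over all genes beside each, gave small numbers in every comparison. GL had 4 of 36 members above Ctrl (ADAMTS2, ADAMTS7, ADAMTS9 and MMP2, 9.21% of all genes) and 1 below (ADAMTSL4, 9.25%). RL had 3 above Ctrl (ADAMTS9, MMP11 and MMP2, 3.66%) and 1 below (ADAMTSL4, 4.66%). BL had 1 above Ctrl (MMP21, 4.91%) and 1 below (ADAMTSL1, 4.09%). BL had 1 member above GL (MMP16, 14.6%) and 4 below (ADAMTSL1, MMP2, MMP14 and MMP15, 12.3%), and it had 0 members above RL (5.87%) and 1 below (MMP11, 3.13%). GL had 3 members above RL (MMP2, MMP14 and MMP15, 6.88%) and 1 below (MMP11, 6.33%). No member had its 3 BL libraries all above or all below the other 9, an order shown by 0.798% and 0.314% of all genes, and none had its 3 RL libraries all below (0.512%). Lens genes stood lower than in Ctrl in GL and in RL, and by their sum also in BL 2 and BL 3. The BL sums were 16293, 2175 and 2472 FPKM. Without overlap, 8 of 8 lens markers lay below Ctrl in GL and 7 of 8 in RL, with sums of 830 to 3285 FPKM in GL, 816 to 2829 FPKM in RL and 4990 to 7948 FPKM in Ctrl. The median log2 fold change of the lens markers was −1.61 in GL minus Ctrl, −1.51 in RL minus Ctrl and 0.16 in BL minus Ctrl. Of 8 corneal epithelial markers, 5 lay above Ctrl in GL without overlap and 1 below, and 0 in RL. By unadjusted p below 0.05 (edgeR), 3 of the 8 were higher in RL than in Ctrl (4.74% of all genes in either direction). In GL 1 was higher (8.1%), and 0 were lower in either group. Fitted log2 values were above 0 for 6 of the 8 in RL minus Ctrl and 5 in GL minus Ctrl. The part of these tissues in the values of the proteases was not tested.

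Among the ADAMTS genes, the proteoglycan-cutting ADAMTS9 was low everywhere and lowest in Ctrl. It had 0.869, 0.535 and 1.2 FPKM in BL, 0.816, 0.892 and 0.842 in GL, 1, 0.642 and 0.877 in RL, and 0.588, 0.314 and 0.425 in Ctrl. GL and RL lay above Ctrl without overlap, and BL 2 fell below Ctrl 1. The mean of the light groups minus Ctrl gave log2 0.98 ± 0.31 (unadjusted p = 0.00696, adjusted p = 1 by edgeR), with 0.97 in BL, 0.99 in GL and 0.99 in RL. These 3 differences share the same Ctrl libraries. Over the alternatives the light mean minus Ctrl ran from 0.36 to 1.24. The lowest value came from limma on log2(FPKM + 1), where the offset of 1 narrows differences of genes near or below 1 FPKM.

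The ADAMTS9 value is uncertain. Its row spans 31611708 to 31784188 of chromosome 9 on the minus strand, and a row with a locus name, LOC103349248, lies inside it on the plus strand at 31647938 to 31665547. The inner row, annotated by likeness to the ADAMTS9 protein of the vole Microtus ochrogaster, had a mean of 708 counts, against 317 for ADAMTS9 itself. Another plus-strand row, LOC108177116 at 31780953 to 31916959, overlaps the end of the ADAMTS9 span and had a mean of 125.5 counts. Whether reads were counted by strand is not given in the sources used here, so reads of the overlapping rows cannot be told apart. LOC103349248 followed another order, with 20.8 ± 6.98 CPM in BL, 6.70 ± 3.63 in GL, 10.8 ± 2.90 in RL and 15.7 ± 2.37 in Ctrl (SD, n = 3 each). It was not called in any comparison by edgeR.

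ADAMTS1, a protease of aggrecan and versican, had 2.32, 1.52 and 1.42 FPKM in BL, 1.36, 2.54 and 2.33 in GL, 1.39, 2.08 and 1.99 in RL, and 1.36, 5.71 and 3.49 in Ctrl. The high Ctrl mean came from Ctrl 2 and Ctrl 3, and Ctrl 1 was level with the lowest light libraries. BL minus Ctrl was log2 −1.02 ± 0.45 (unadjusted p = 0.0394, adjusted p = 1 by edgeR), −0.47 without Ctrl 2, and −0.08 with a term for the 5 libraries rich in low counts. The mean of the light groups minus Ctrl was −0.88 ± 0.34 (unadjusted p = 0.0248, adjusted p = 1). Among the other proteoglycan-cutting members ADAMTS5 was the most abundant, averaging 3.46 FPKM with a range of 1.83 to 5.21, ADAMTS4 averaged 1.63 FPKM, and ADAMTS8, ADAMTS15 and ADAMTS20 averaged at most 0.108 FPKM.

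ADAMTS17 and ADAMTS10, which act on fibrillin microfibrils and whose human mutations affect the lens zonule, averaged 18.9 and 9.07 FPKM. ADAMTS17 had 13.3, 13.0 and 23.6 FPKM in BL, 20.4, 25.2 and 23.3 in GL, 12.6, 22.4 and 14.3 in RL, and 15.5, 21.6 and 22 in Ctrl. It split the libraries within groups: BL 1, BL 2, RL 1, RL 3 and Ctrl 1 lay at 12.6 to 15.5 FPKM and the other 7 at 20.4 to 25.2 FPKM. Of the low 5, all but RL 3 belong to the libraries rich in low counts. ADAMTS10 ranged from 6.16 to 11 FPKM, and neither gene had an unadjusted p below 0.05.

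The 3 ADAMTS-like genes ranged from 0.316 to 6.14 FPKM on average. ADAMTSL4, a fibrillin-binding protein whose human mutations displace the lens, had 8.14, 6.08 and 6.00 FPKM in BL, 4.97, 6.28 and 3.39 in GL, 6.00, 5.18 and 5.16 in RL, and 6.71, 8.56 and 7.19 in Ctrl. GL and RL lay below Ctrl without overlap (GL minus Ctrl log2 −0.57 ± 0.23, unadjusted p = 0.0265, adjusted p = 0.601 by edgeR). ADAMTSL3 had 2.96, 1.61 and 4.09 FPKM in BL, 2.24, 2.43 and 3.32 in GL, 2.18, 8.16 and 3.28 in RL, and 1.58, 2.52 and 2.27 in Ctrl. The RL mean rested on RL 2: RL minus Ctrl was log2 1.18 ± 0.46 (unadjusted p = 0.0239, adjusted p = 1) with it and 0.42 without it. ADAMTSL1 averaged 0.316 FPKM and was lowest in BL, at 0.0979 to 0.204 FPKM, against 0.227 to 0.654 FPKM in Ctrl (log2 −1.20 ± 0.63).

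TIMP1 differed little between groups, while TIMP3 spread within RL. TIMP1, a broad inhibitor of soluble MMPs, had 78.6, 126 and 98.9 FPKM in BL, 96.9, 95.8 and 120.3 in GL, 87.9, 114 and 88.2 in RL, and 99.99, 115 and 98.7 in Ctrl, with every group overlapping. Its log2 fold change lay between −0.09 and 0.09 in all 6 pairwise comparisons (SE 0.21). TIMP3, the inhibitor that stays bound to matrix, had 103, 137 and 104 FPKM in BL, 110.4, 129 and 149.8 in GL, 109, 205 and 169 in RL, and 113, 151 and 124 in Ctrl. RL 2 and RL 3 were the highest, and RL 1 was among the lowest. BL minus RL gave log2 −0.57 ± 0.25 (unadjusted p = 0.0387, adjusted p = 0.930 by edgeR), −0.34 without RL 2 and −0.14 with the term for the 5 libraries.

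TIMP2, which also helps MMP14 to activate MMP2, divided the libraries inside the groups. It had 37.7, 45.1 and 75.8 FPKM in BL, 73.1, 85.1 and 81.2 in GL, 46.3, 81.4 and 68.1 in RL, and 45.3, 93.0 and 80.2 in Ctrl. BL 1, BL 2, RL 1 and Ctrl 1 lay at 37.7 to 46.3 FPKM and the other 8 at 68.1 to 93.0 FPKM, and those 4 are among the 5 libraries rich in low counts. No pairwise difference had an unadjusted p below 0.05, the smallest being 0.0655 for BL minus GL (log2 −0.64 ± 0.32).

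TIMP4 was the least abundant inhibitor and the most variable. It had 18.3, 4.29 and 14.4 FPKM in BL, 6.56, 7.61 and 8.45 in GL, 3.16, 12.0 and 9.62 in RL, and 7.88, 4.64 and 3.74 in Ctrl. BL 1 and BL 3 were the highest libraries, and BL 2 fell within the Ctrl range. BL minus Ctrl gave log2 1.18 ± 0.56 (unadjusted p = 0.0556, adjusted p = 1 by edgeR), and 0.72 without BL 1, GL 3 and Ctrl 2, the libraries highest in retinal markers. TIMP4 lies within SYN2, a synapsin gene on the opposite strand, which had a mean of 133 counts against 322 for TIMP4, so its value is uncertain for the same reason as that of ADAMTS9. TIMP1 and TIMP3 lie likewise within SYN1 and SYN3, where the synapsin counts averaged 26.3 and 4.33, against 5149 and 4898 for the inhibitors.

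**Figure D4:**
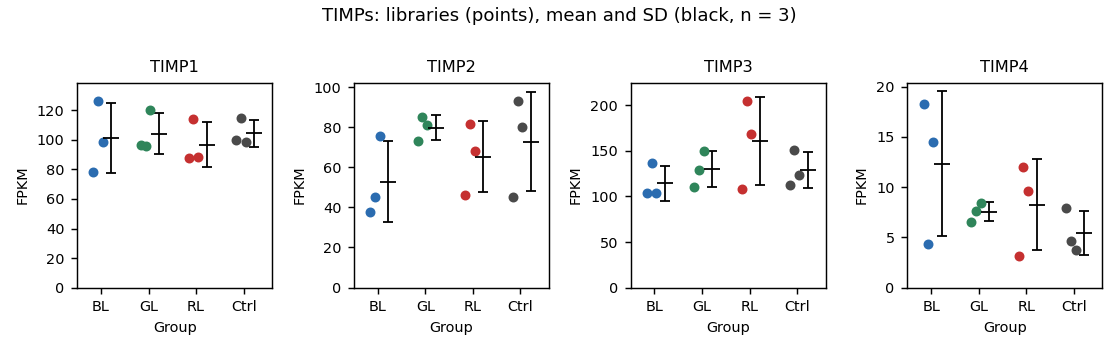
FPKM of the 4 TIMP genes in each library (points), with the mean and SD of each group (black, n = 3), from BL to Ctrl. TIMP1 and TIMP3 overlap in all groups, TIMP2 is at 37.7 to 46.3 in 4 libraries of 3 groups, and TIMP4 reaches 18.3 and 14.4 in BL.

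The balance of inhibitor and protease RNA was read as the ratio of summed FPKM, TIMP over MMP. The ratio was 3.59, 1.86 and 1.47 in BL, 1.33, 1.36 and 1.54 in GL, 1.24, 2.04 and 1.99 in RL, and 1.83, 2.32 and 1.73 in Ctrl. GL lay below Ctrl without overlap, and RL 1 and BL 3 were also below every Ctrl library. MMP2 is the largest term of the MMP sum in each library, so the ratio restates MMP2 in part, and it was not tested. The TIMP sum moved it as well. RL 1 and RL 2 had MMP sums of 199 and 202 FPKM, but TIMP sums of 246 and 412 FPKM. Summed TIMP FPKM overlapped among all groups, at 281 ± 38.7 in BL, 321 ± 36.6 in GL, 331 ± 83.3 in RL and 312 ± 49.2 in Ctrl (SD, n = 3 each).

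The procollagen N-proteinases remove the amino-terminal propeptide of fibrillar procollagens. ADAMTS2 had 10.6, 22.7 and 40.4 FPKM in BL, 37.4, 43.2 and 42.2 in GL, 21.7, 50.9 and 23.9 in RL, and 24.8, 25.9 and 30.5 in Ctrl. GL lay above Ctrl without overlap, but within BL and RL the libraries differed by more than that. ADAMTS3 and ADAMTS14, with the same activity, were nearly level, at 4.39 to 7.37 FPKM and 4.76 to 6.99 FPKM over all libraries. GL minus Ctrl for ADAMTS2 was log2 0.65 ± 0.42 (unadjusted p = 0.144, adjusted p = 0.665 by edgeR).

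ADAMTS2 followed COL1A1, the gene of its substrate the type I procollagen α1 chain, from library to library. COL1A1 had 349, 1067 and 2454 FPKM in BL, 2714, 3235 and 3170.3 in GL, 991, 3537 and 1653 in RL, and 938, 1811 and 1979 in Ctrl. On log2(CPM + 1) over 12 libraries Pearson's r was 0.971 and Spearman's rho 0.972. Without BL 1 and Ctrl 1, the libraries farthest from the median of COL1A1, r was 0.956. It was 0.958 with the group means removed, 0.988 within the 5 libraries rich in low counts and 0.990 within the other 7. The relation was chosen after the values were seen, so it is described without a p. Of 18170 genes compared with COL1A1 in the same way, 12 (0.066%), ADAMTS2 among them, had an r at least as high.

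The other 5 genes examined gave lower values. ADAMTS3 had r = −0.09 and rho = 0.12, but r was 0.690 without BL 1 and Ctrl 1, 0.754 within the 7 libraries and −0.64 within the 5, so its value rests on a few libraries. ADAMTS14 had r = −0.25 and rho = −0.21. MMP2 had r = 0.861 and rho = 0.818, with 0.602 without BL 1 and Ctrl 1, 0.863 within the 7 and 0.896 within the 5, and 1.79% of genes had an r at least as high as MMP2. TIMP2 had r = 0.906 and rho = 0.811, but 0.309 within the 7 libraries, and MMP14 had r = 0.452 and rho = 0.315. Differences between these correlations were not tested. COL1A1 is also 1 of the keratocyte markers, and how far a share of stromal RNA moves with these genes was not tested.

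**Figure D5:**
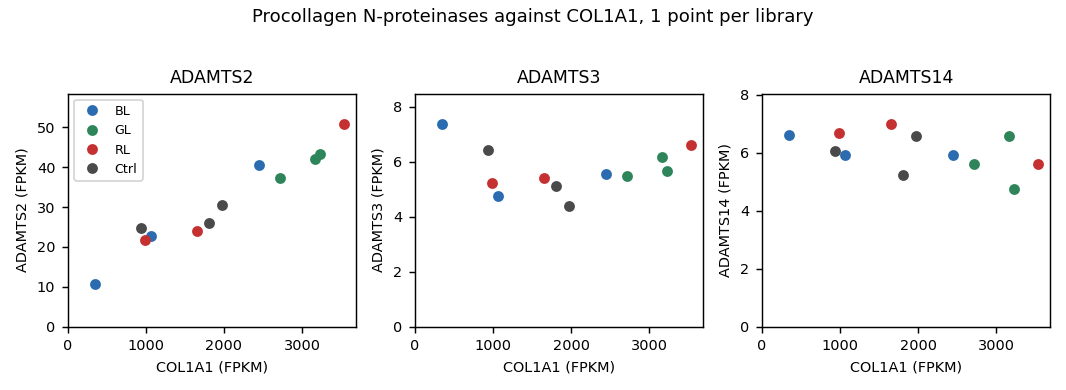
FPKM of ADAMTS2, ADAMTS3 and ADAMTS14 against COL1A1 FPKM, 1 point per library, coloured by group. ADAMTS2 climbs with COL1A1 from 10.6 at 349 to 50.9 at 3537 FPKM, while ADAMTS3 and ADAMTS14 stay between 4.39 and 7.37.

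Genes that act on the same pathway were taken from lists of activators, inducers and matrix substrates. Of 9 activators tested, 1 was called: HPN (hepsin), a membrane serine protease, was higher in GL than in RL. HPN had 14.2, 11.8 and 13.8 FPKM in BL, 30.4, 18.1 and 23.8 in GL, 7.12, 10.4 and 8.52 in RL, and 10.6, 11.7 and 13.7 in Ctrl. All GL libraries were above all 9 others, an order that 2% of all genes showed. GL minus RL was log2 1.45 ± 0.23 (adjusted p = 0.0409 by edgeR, n = 3 each). The call ended in 15 of 25 alternative settings, with adjusted p from 0.0503 to 0.520. Among them were omission of BL 1, BL 2, BL 3, GL 1, GL 3, RL 1, RL 3, Ctrl 1, Ctrl 2 or Ctrl 3 (0.0503 to 0.226), while the log2 value stayed between 1.25 and 1.63. GL minus Ctrl gave log2 1.05 ± 0.23 (unadjusted p = 0.000479, adjusted p = 0.244).

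None of the other genes on these lists was called by edgeR. PLAU, the urokinase that starts plasmin formation and so MMP activation, had 81.0, 131 and 63.6 FPKM in BL, 50.2, 60.2 and 34.3 in GL, 85.2, 76.1 and 131 in RL, and 54.2, 40.9 and 68.2 in Ctrl. RL was above Ctrl in every library (log2 0.91 ± 0.31, unadjusted p = 0.0117, adjusted p = 1).

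Among 16 inducers tested, the transcription factor genes FOS and ETS1, whose products act on many MMP promoters, had the smallest p in GL minus Ctrl. FOS had 73.0, 162 and 279 FPKM in BL, 39.7, 33.2 and 53.2 in GL, 224, 139.7 and 331 in RL, and 273, 313 and 77.9 in Ctrl. GL was below all other libraries, as for 1.59% of all genes (GL minus Ctrl log2 −2.35 ± 0.55, unadjusted p = 0.000956, adjusted p = 0.333 by edgeR). ETS1 had 6.92, 5.67 and 6.25 FPKM in BL, 8.63, 7.43 and 7.91 in GL, 7.02, 7.24 and 7.03 in RL, and 4.84, 4.28 and 4.44 in Ctrl. Every light library was above every Ctrl library, an order that 0.259% of all genes showed (mean of the light groups minus Ctrl log2 0.68, unadjusted p = 0.00171, adjusted p = 0.797). IL1A and IL1B, cytokines known to induce collagenases, stayed at or below 1.14 and 0.575 FPKM. Of 25 matrix substrates tested, 1 (BGN, biglycan) had an unadjusted p below 0.05 by edgeR in GL minus Ctrl (8.1% of all genes). In RL and BL minus Ctrl 0 did (4.74% and 3.26%). In BL minus GL 1 did with BL higher and 5 with BL lower (14.9%). Without overlap, 6 substrates lay above Ctrl in GL (9.21% of all genes) and 4 below (9.25%). In RL 0 did either, and in BL 0 lay above and 1 below. In BL 8 lay above GL (14.6%) and 9 below (12.3%). BGN had 86.3 ± 11.9 CPM in GL and 182 ± 51.2 in Ctrl (SD, n = 3 each, log2 −1.07 ± 0.36). It was also lower in BL minus Ctrl (log2 −0.77, unadjusted p = 0.0529 by edgeR) and RL minus Ctrl (log2 −0.76, unadjusted p = 0.0569 by edgeR).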

How the data were processed

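The authors deposited, per the file headers, an FPKM value and an estimated count per gene and library. The counts were whole numbers whose low values pile up in steps of about 3.77, and a count of 0 was listed as an FPKM of 0.0001, read here as 0. GRCm38/mm10, a build of the mouse, is named in the submitters' processing notes, but the table holds rabbit sequences. Aligner, counter and rabbit build: not given in the sources used here. Coordinates are those of the table. From the counts, edgeR 4.0.16 (R 4.3.3; TMM scaling, filterByExpr, glmQLFit, glmQLFTest) was run with all 12 libraries in 1 fit of 4 group means, adjusted by Benjamini-Hochberg over 18171 genes. TMM factors were 0.944 to 1.06, the common coefficient of variation 0.578, and SEs are |log2 fold change| over the root of F. Non-overlap was read on TMM-scaled CPM. The procedure was tested on simulated data. The plan assumed FPKM or raw counts, and limma 3.58.1 on log2(FPKM + 1) and log2(FPKM + 0.1) and DESeq2 1.42.0 were alternatives, among 25 run. Members and lists were chosen with earlier results of these data known. Genes given per library were MMP11, the TIMPs, 6 well-known corneal MMPs, the 8 most abundant members and, per comparison, up to 3 with the smallest p. ADAMTS17, MMP28 and ADAMTS2 are among the most abundant; ADAMTSL1 is among the smallest p. LOC103349248, IL1A, IL1B, the MMP cluster and the relations with COL1A1 were added after values were seen. Floors cover counting error only, since no molecular identifiers were used. A list of further inhibitors is not reported here.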

Additional observations from a re-analysis of the deposited data

How the results depend on the processing

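The count of members called stayed at 0 in all 8 comparisons under the edgeR and limma alternatives run: scaling, filters, pseudocounts, fits of the compared groups alone, omission of each library, and, chosen after seeing the data, step-divided counts, terms for library size and library set, and omission of the 3 libraries highest in retinal markers. Under DESeq2 it became 1 in BL minus RL and 1 in the test of any difference, MMP11 in both; the cause was not tested. With a replicate block the count was also 0 in each comparison, and HPN in GL minus RL had an adjusted p of 0.127. Whether replicate numbers pair the libraries could not be settled from their correlations. Of 18 same-numbered pairs 6 correlated above 0.1 (−0.11 to 0.39), and 6 of 12 libraries correlated best with their own number. Apart from RL 2 with Ctrl 2 (0.20), the same-numbered pairs above 0.1 were pairs of replicate 1. Pairs of unlike number reached 0.30 (BL 3 with RL 2). Alternatives were followed for 22 differences, those with the smallest p per comparison and HPN, and these kept their sign in each one run; those of other members, MMP2 among them, were not followed. Read on deposited FPKM, 2 members (ADAMTS5 and ADAMTSL4) lay below Ctrl in RL, against 1, and 1 (ADAMTSL4) lay above RL in BL, against 0. The correlation with COL1A1 ran from 0.938 to 0.981 for ADAMTS2 and from −0.30 to 0.42 for ADAMTS3, whose sign turned without BL 1 (0.42). Depth limits members near the floor, such as MMP9, for which differences were not detectable.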

Other observations

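Rows of the same protein families that carry only a locus name fall outside the name rule, and there are 7 of them. Of these, 3 had 0 counts in every library, and 3 had at most 2, 4 and 30 counts, the last of them annotated as similar to MMP25. LOC103349248, inside ADAMTS9, was the most abundant, with 5.11, 2.49 and 3.48 FPKM in BL, 0.452, 1.63 and 1.32 in GL, 1.96, 1.26 and 2.24 in RL, and 2.52, 3.18 and 2.57 in Ctrl. GL lay below BL and Ctrl without overlap (BL minus GL log2 1.64 ± 0.42, adjusted p = 0.231 by edgeR; GL minus Ctrl −1.23 ± 0.42, adjusted p = 0.553).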
